A study of Mus musculus with 9 samples.

Results

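Gene expression of epithelial cells sorted from kidney was compared with that of small intestinal epithelial cells of the gate named MHCIIlo. The comparison used 6 of the 9 arrays of the series, that is, all 3 arrays of each of those 2 groups, and left out the arrays of the intestinal MHCIIhi gate. All cells came from C57BL/6 mice. The kidney group held cells sorted as Epcam+ CD45- Fluorogold- after digestion of kidneys with collagenase, dispase and DNase, and each replicate pooled the cells of 4 mice. The MHCIIlo group held cells freed from small intestine with EDTA and sorted as Epcamint MHCint CD45- Fluorogold-, and each replicate pooled the cells of 3 mice. Its cell type label reads MHCIIint, so that the gate held cells of intermediate, not absent, surface MHC class II. Epcam is an adhesion molecule of epithelia, CD45 the common surface protein of leukocytes, and Fluorogold a dye used here to leave out dead cells. Kidney cells were not sorted on MHC class II. Tissue, method of release and gate differed together between the groups and cannot be told apart. The sources used here do not give the age or sex of the mice.

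Kidney tubules and small intestine are both lined by a simple, polarised epithelium that moves salt, water and solutes between a lumen and the blood. The nephron does this in segments. Its proximal tubule reclaims most of the filtered solutes across a brush border, its thick ascending limb takes up salt without water, and its distal tubule and collecting duct, built of principal and intercalated cells, set the final excretion of sodium, potassium, calcium and acid. The intestinal villus is covered by absorptive enterocytes with a brush border of their own, with mucus-making goblet cells, hormone-making enteroendocrine cells and chemosensory tuft cells between them and antimicrobial Paneth cells at the crypt base.

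RNA of each replicate was hybridised to 1 single-colour Agilent array. Levels are log2 processed signals from which the 75th percentile of their array was subtracted, and differences as kidney minus MHCIIlo on the log2 scale, ± the SE of the limma fit (n = 3 arrays per group). The 75th percentile of the signal was 599 to 769.7 on the kidney arrays and 100.6 to 185 on the MHCIIlo arrays, and 71.2 to 73.2% against 51.0 to 57.3% of spots were well above background, so that dim genes were harder to see in MHCIIlo. The kidney arrays lay on one slide and the MHCIIlo arrays on another, so that slide and group cannot be told apart, and the number of arrays limits the precision of every value. Over the 19759 genes tested, with 1 probe each, arrays of a group correlated at 0.974 or more and arrays of different groups at 0.662 or less. A gene was called when its Benjamini-Hochberg adjusted p in limma was below 0.05 over all genes tested and its difference was at least 1 in either direction. Of 19759 genes tested, 11434 (57.9%) were called, 6032 (30.5%) higher and 5402 (27.3%) lower in kidney, and the 2 groups of arrays did not overlap for 15459 (78.2%). Counts within a list are to be read against these shares. With normexp background correction in place of the scanner software's, 2966 were higher and 7750 lower, and the authors' deposited values and the other settings are given in the closing section. Normexp moved the median difference of all genes from 0.07 to -0.58, the authors' values moved it to -0.22, and quantile normalization and scaling to genes well above background moved it to 0.21 and 0.26.

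Kidney array 1 stood apart from the other kidney arrays for genes of the proximal tubule. Over all genes tested, it lay at least 1 (log2) above both other kidney arrays for 498, against 80 for kidney 2 and 31 for kidney 3. It lay as far below both for 283, against 19 for kidney 2 and 65 for kidney 3. The MHCIIlo arrays differed among themselves as well: by the same margin MHCIIlo 1, 2 and 3 lay above both others of their group for 475, 263 and 451 genes and below both for 632, 201 and 346. Linear signals over the 75th percentile, summed over a list of 32 proximal tubule transporters, came to 123 on kidney 1 and to 39.2 and 39.4 on kidney 2 and 3. Summed over 14 endothelial genes, they came to 59 on kidney 1 and to 142 and 104 on the others. In RNA of a whole sort, fewer cells of a type and less RNA per cell cannot be told apart. Where leaving out 1 array moved a value by more than 1.5-fold, the value without that array stands beside it in brackets. Where only some arrays of a group were well above background for a gene, their number is given, and the difference then rests in part on signals near the floor. A gene well above background in only 1 group entered the test through that group, so that the filter largely set its direction.

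The largest differences separated genes of the distal nephron from genes of the enterocyte. Umod, which encodes uromodulin, the main protein secreted by the thick ascending limb, stood at 8.87, 8.95 and 8.95 on kidney 1, 2 and 3 and at -6.63, -6.28 and -5.73 on MHCIIlo 1, 2 and 3. The groups did not overlap, and no MHCIIlo array was well above background. For such a gene the fold is a lower bound, taken as the mean of the bright group over the mean of, on each dim array, the higher of the gene's own signal and the lowest signal that was well above background. On that scale Umod was at least 7376-fold higher in kidney (difference 15.14 ± 0.25, adjusted p = 1.03e-07 in limma). Cdh16, the kidney-specific cadherin found along the tubule, stood at 8.28, 8.03 and 8.04 in kidney and -5.31, -4.33 and -5.33 in MHCIIlo and was at least 4217-fold higher. Egf, the growth factor precursor made in the distal nephron, was at least 2671-fold higher, Spp1, a secreted phosphoprotein of tubule cells, at least 2658-fold, and Fxyd2, a regulatory subunit of the sodium pump, at least 2231-fold. On the intestinal side, Reg3b, a secreted antibacterial lectin, stood at -8.08, -8.33 and -8.37 in kidney and 10.39, 10.37 and 10.36 in MHCIIlo. None of the kidney arrays was well above background, and Reg3b was at least 83643-fold lower in kidney, the largest such bound in either direction among genes named by the rule used here. Muc3, a membrane mucin of the enterocyte surface, was at least 26924-fold lower, and Apoa1, the main protein of high-density lipoprotein, at least 21430.0-fold lower. The probe of Umod lay at chr7:119254164-119254223, that of Cdh16 at chr8:107503330-107503389 and that of Reg3b at chr6:78302838-78302897 on mm8, per the file headers.

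Among genes measured well above background on all 6 arrays, Fabp2, the fatty acid binding protein of the enterocyte cytosol, had the largest difference. It stood at -4.30, -3.83 and -3.96 in kidney and 10.54, 11.11 and 10.98 in MHCIIlo, a difference of -14.90 ± 0.23 (adjusted p = 9.67e-08). Every kidney array lay far below every MHCIIlo array. Next in that direction were Reg3g, a lectin akin to Reg3b (-13.83 ± 0.33), Gpx2, a gastrointestinal glutathione peroxidase (-12.97 ± 0.31), Prap1, a secreted protein of the intestinal lining (-12.63 ± 0.48), and Clca1, a secreted goblet cell protein (-11.78 ± 0.34). In the other direction the largest included Fabp3, the fatty acid binding protein of heart and kidney (8.54 ± 0.49 (7.92 without MHCIIlo 1)), Slc2a4, the insulin-responsive glucose transporter GLUT4 (8.29 ± 0.28), Car15, a membrane-bound carbonic anhydrase (8.11 ± 0.32), Col18a1, a basement membrane collagen (8.01 ± 0.53 (8.68 without MHCIIlo 3)), and Gpx3, the secreted glutathione peroxidase made by kidney tubules (7.96 ± 0.34).

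**Figure D1:**
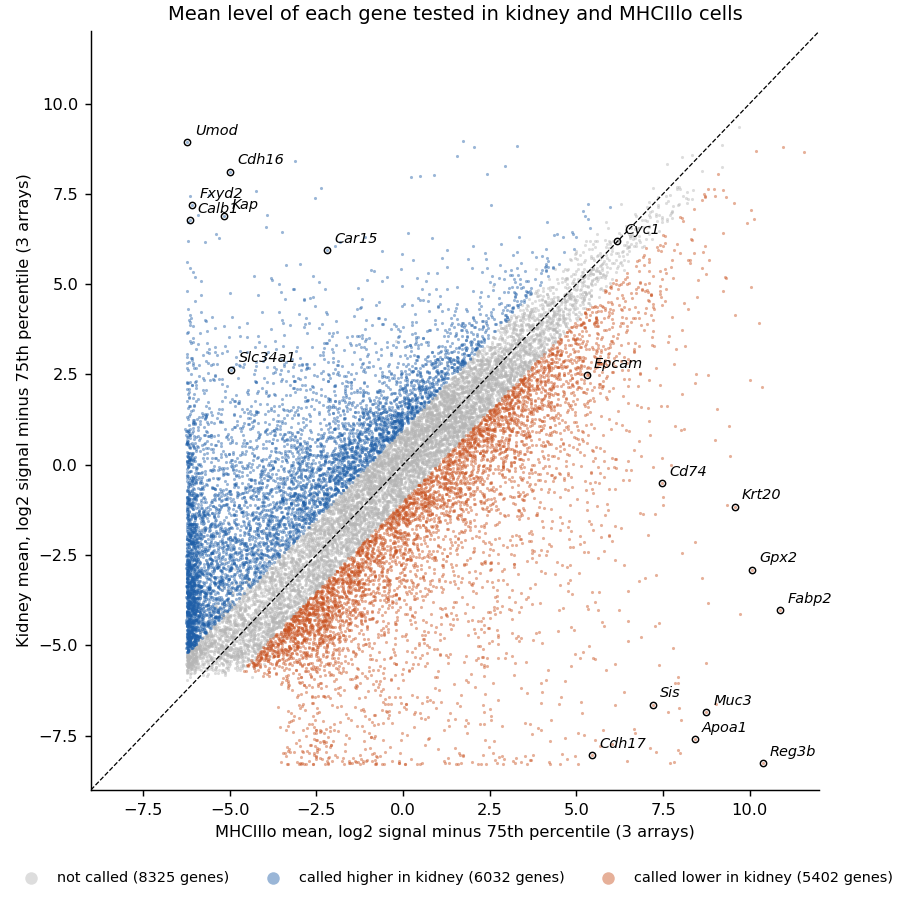
Mean level of each of 19759 genes in MHCIIlo (horizontal) and kidney (vertical), as log2 signal minus the 75th percentile over 3 arrays per group, with the dashed line at equality. Blue points (6032) were called higher and orange points (5402) lower in kidney; Umod and Cdh16 lie at the upper left and Fabp2 and Reg3b at the lower right, and the dense edge at the left holds genes near the floor of the MHCIIlo arrays.

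Epcam differed in the direction opposite to the nephron genes. It stood at 3.16, 2.28 and 2.03 in kidney and 5.46, 5.38 and 5.06 in MHCIIlo, a difference of -2.81 ± 0.31 (adjusted p = 1.63e-04), and was well above background on all 6 arrays. Both groups were sorted on Epcam protein, but with gates set in different tissues, so that this level is in part fixed by the sort. Ptprc, which encodes CD45, stood at -0.77, -0.998 and -1.17 and -1.85, -1.19 and -1.48, a difference of 0.53 ± 0.23 that was not called (adjusted p = 0.0698).

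Genes of the thick ascending limb were higher in kidney throughout the list, 14 of 14 tested against 30.5% of all genes. Of these, 11 were well above background on no MHCIIlo array and 0 on all 6 arrays. All 14 passed the filter through kidney alone, so that it largely fixed their direction. Their median difference was 8.26, or 6.35 with dim genes set at their lower bounds and 3.96 with normexp, against 0.07 over all genes. Slc12a1, the sodium-potassium-chloride cotransporter NKCC2 through which this segment takes up salt, stood at 6.31, 5.93 and 6.32 in kidney and -6.62, -6.27 and -5.72 in MHCIIlo and was at least 1107-fold higher. Kcnj1, the potassium channel ROMK that returns potassium to the lumen, was at least 1605-fold higher. Cldn10, Cldn16 and Cldn19, claudins that form the cation-selective seals between cells of this segment, were at least 209-fold, 42.7-fold and 41.1-fold higher. Ppp1r1a, an inhibitor of protein phosphatase 1, was well above background on 1 MHCIIlo array and differed by 10.53 ± 0.16. Adjusted p for the genes named here was 9.67e-08 to 4.65e-06.

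The distal convoluted tubule, the segment that follows, gave 13 of 15 genes higher and 0 lower. Among the 5 well above background on all 6 arrays, 3 were higher. Slc12a3, the thiazide-sensitive sodium-chloride cotransporter NCC, stood at 3.65, 4.02 and 4.50 in kidney and -6.54, -6.16 and -5.63 in MHCIIlo and was at least 253-fold higher. Calb1, a calcium-binding protein that carries calcium across the cell, was at least 1668-fold higher, and Kl, the co-receptor for the phosphate hormone FGF23, at least 739.6-fold. Kcnj10, a basolateral potassium channel, was at least 222-fold higher, and its partner Kcnj16, seen on 1 MHCIIlo array, differed by 8.86 ± 0.36. The 2 genes not called were Sgms2 (0.60 ± 0.19), a sphingomyelin synthase, and Trpm6 (-0.27 ± 0.37), the magnesium channel of this segment, both well above background on all 6 arrays. Trpm6 stood at -2.38, -1.94 and -0.95 in kidney and -1.16, -1.67 and -1.62 in MHCIIlo, so that the groups overlapped.

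Principal cell genes were higher for 14 of 15 and lower for 1. Among the 6 well above background on all 6 arrays, 5 were higher and 1 lower. Aqp2, the vasopressin-regulated water channel, stood at 5.15, 5.42 and 5.63 in kidney and -1.30, -0.83 and -0.68 in MHCIIlo, a difference of 6.34 ± 0.23 (adjusted p = 1.14e-06). It was well above background on every MHCIIlo array, yet each of these lay below each kidney array. Scnn1b and Scnn1g, subunits of the epithelial sodium channel ENaC, were at least 162-fold and 235-fold higher, and Avpr2, the vasopressin receptor, at least 93.7-fold. Rhcg, an ammonia channel, was at least 1829.5-fold higher and Fxyd4, another sodium pump regulator, at least 1099-fold. The exception was Nr3c2, the mineralocorticoid receptor through which aldosterone acts on this cell, at -1.36, -1.48 and -1.63 in kidney and 0.96, 2.09 and 2.24 in MHCIIlo, a difference of -3.26 ± 0.34.

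Intercalated cells secrete acid or bicarbonate with a proton pump that uses its own subunit isoforms, and all 15 of their genes tested were higher in kidney, with a median of 7.79, or 6.37 with dim genes at their bounds and 4.32 with normexp. Of these genes, 4 were well above background on all 6 arrays. The pump subunits Atp6v0a4, Atp6v1b1 and Atp6v1c2 were at least 243-fold, 189-fold and 392-fold higher. Atp6v1b1 stood at 3.77, 3.47 and 3.68 in kidney and -6.47, -5.62 and -5.50 in MHCIIlo. The ubiquitous counterpart of Atp6v0a4, Atp6v0a1, was instead lower in kidney (-1.22 ± 0.16, and no longer called with normexp), and Atp6v1b2, that of Atp6v1b1, fell just short of a call (0.95 ± 0.22, and called at 1.12 without kidney 1 and 1.06 without MHCIIlo 1). Slc26a4, the chloride-bicarbonate exchanger pendrin of the bicarbonate-secreting type, differed by 9.91 ± 0.33 and was seen on 2 MHCIIlo arrays. Slc4a1, the anion exchanger AE1 of the acid-secreting type and of red blood cells, differed by 7.79 ± 0.30 with all 6 arrays above background. Of 5 red blood cell genes tested, Slc4a1 was the only one called. Aqp6, an aquaporin of intracellular vesicles in these cells, was at least 189.7-fold higher.

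**Figure D2:**
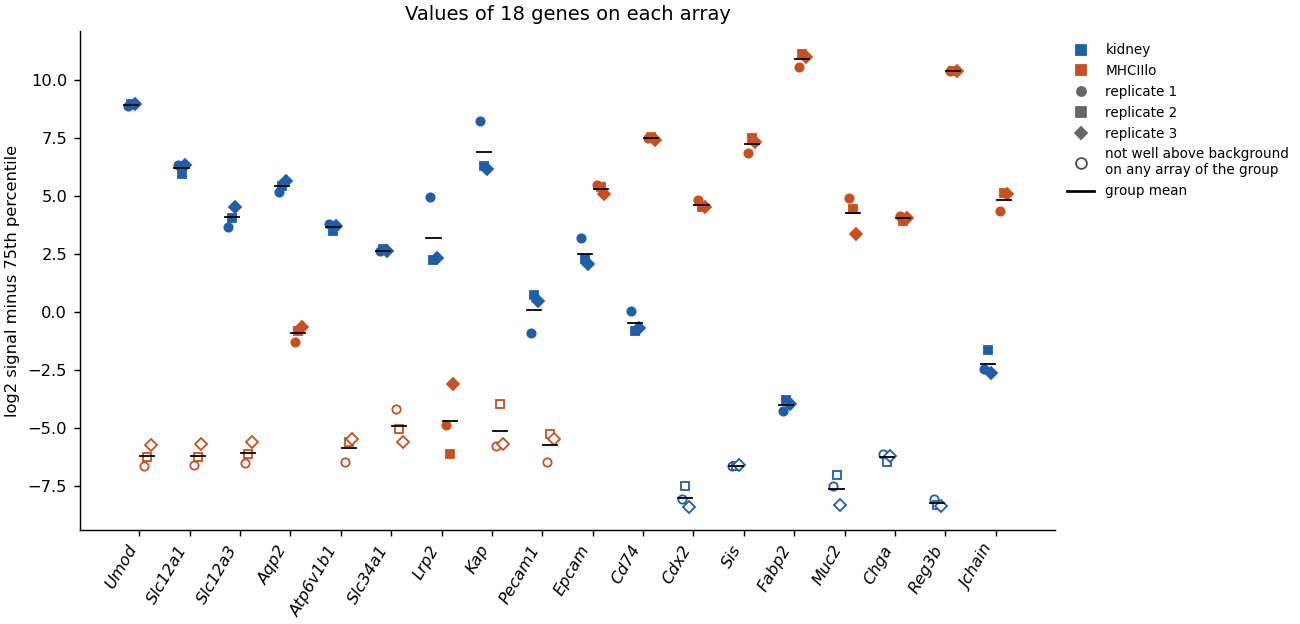
Level of 18 genes on each array, as log2 signal minus the 75th percentile, with kidney in blue, MHCIIlo in orange, a symbol per replicate, black lines at the group means and open symbols where no array of the group was well above background. Distal nephron genes at the left lie high on all 3 kidney arrays and, except for Aqp2, at the floor of MHCIIlo. Lrp2 and Kap are highest on kidney 1, and the intestinal genes at the right show the opposite order.

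Proximal tubule transporters did not move as one. Of 32 tested, 16 were higher in kidney and 11 lower, with a median of 2.82 that was 1.32 without kidney 1 (17 higher and 10 lower) and 1.23 with dim genes at their bounds. With normexp 8 were higher and the median was 0.00. Among the 16 transporters well above background on all 6 arrays the median turned to -1.30, with 3 higher and 10 lower. Slc34a1, the sodium-phosphate cotransporter of this segment, stood at 2.62, 2.69 and 2.60 in kidney and -4.19, -5.04 and -5.61 in MHCIIlo and was at least 91-fold higher, with the 3 kidney arrays close together. Slc5a2, the sodium-glucose cotransporter SGLT2, was at least 33.3-fold higher (6.99 ± 0.22). The organic anion and phosphate carriers Slc17a1 and Slc17a3 differed by 6.22 ± 0.75 (5.29 without kidney 1) and 7.09 ± 0.87 (6.00 without kidney 1, 7.78 without kidney 3), and the organic cation transporter Slc22a2 by 5.86 ± 0.71 (4.98 without kidney 1). Lower in kidney were Slc13a1, a sulfate transporter (-5.36 ± 0.28), Slc7a7, which exports cationic amino acids (-5.27 ± 0.18), and both chains of the cystine transporter, Slc7a9 (-6.14 ± 0.38) and Slc3a1 (-4.03 ± 0.83 (-5.10 without kidney 1)). These transporters also serve the enterocyte brush border or basolateral membrane, and all 4 were well above background on all 6 arrays. Slc13a2, a dicarboxylate transporter seen on 1 kidney array, was at least 177-fold lower.

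The receptors with which the proximal tubule retrieves filtered protein were split. Lrp2, which encodes megalin, stood at 4.93, 2.22 and 2.33 in kidney and -4.88, -6.12 and -3.10 in MHCIIlo, with kidney 1 far above the other kidney arrays and still no overlap between groups. The difference was 7.86 ± 0.95 (6.98 without kidney 1, 7.15 without MHCIIlo 2, 8.66 without MHCIIlo 3) (adjusted p = 2.46e-04), and 1 MHCIIlo array was well above background. Cubn, which encodes its partner cubilin, was lower in kidney, at 2.58, -0.67 and -0.88 against 4.69, 5.52 and 5.07 (-4.75 ± 0.88 (-5.86 without kidney 1, -4.13 without kidney 3)), and so was Amn, the anchor of cubilin that the intestine uses for vitamin B12 uptake (-5.96 ± 0.29). Dab2, an adaptor of megalin, and Folr1, the folate receptor, were higher (5.91 ± 0.37 and 4.49 ± 0.38). Of the 10 genes in this list, 6 were higher and 4 lower.

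Renal metabolic genes were called higher for 11 of 26 and lower for 8, against 30.5% and 27.3% of all genes. Their median was 0.34, or 0 with dim genes at their bounds. Among the 16 well above background on all 6 arrays the median was -1.13, with 4 higher and 8 lower. Of the 26 genes, 22 were highest on kidney 1 among the kidney arrays. Kap, an androgen-regulated protein of the mouse proximal tubule, stood at 8.22, 6.29 and 6.17 in kidney and -5.80, -3.97 and -5.72 in MHCIIlo and was at least 1797-fold higher (12.06 ± 0.69 (11.39 without kidney 1, 12.65 without MHCIIlo 2)). Miox, the first enzyme of inositol breakdown, differed by 7.24 ± 0.43. Klk1, a kallikrein of the distal nephron, differed by 7.24 ± 0.30. Lower were Dpep1, a dipeptidase of both brush borders (-9.01 ± 0.24), Khk, the fructokinase (-3.49 ± 0.60 (-4.20 without kidney 1)), and Ggt1, a glutathione-cleaving brush border enzyme (-3.13 ± 0.29). Of the transporters, 13 of 32 were not well above background on any MHCIIlo array, of the retrieval genes 1 of 10 and of the metabolic genes 7 of 26. The summed signal of the transporters was 240.1 to 313 in MHCIIlo against 39.2 to 123 in kidney, whereas that of the metabolic genes was 568 to 837 against 792 to 1318.

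**Figure D3:**
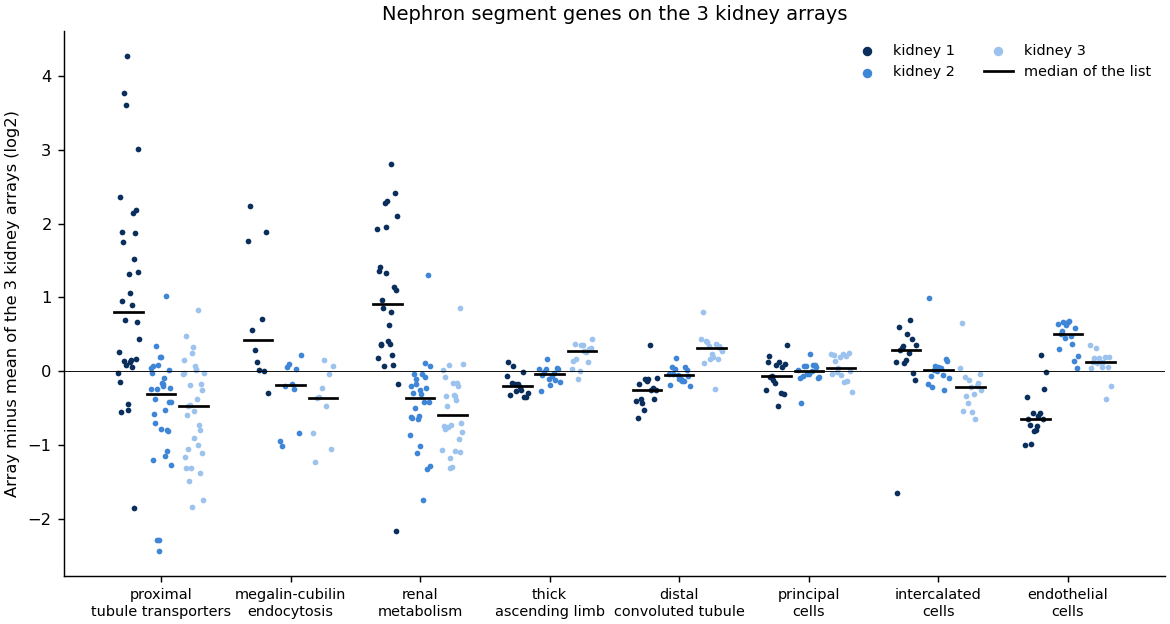
Deviation of each kidney array from the mean of the 3 kidney arrays (log2), for the tested members of 8 lists, with a point per gene and a black line at the list's median on that array. Kidney 1 lies above kidney 2 and 3 for the 3 proximal lists and below them for endothelial genes. The 4 distal lists lie close to 0 but still differ in order among the arrays. Kidney 3 was highest for 14 of 15 distal convoluted tubule and 11 of 14 thick ascending limb genes, and kidney 1 for 12 of 15 intercalated cell genes.

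Brush border hydrolases, which digest sugars and peptides at the enterocyte surface, were lower in kidney for 16 of 16 genes, against 27.3% of all genes tested, with a median of -6.55 (-5.70 with quantile normalization). Sis, the sucrase-isomaltase, stood at -6.65, -6.66 and -6.61 in kidney and 6.84, 7.49 and 7.29 in MHCIIlo and was at least 9334-fold lower. Lct, the lactase, differed by -11.53 ± 0.29, with 2 kidney arrays well above background, and Enpp7, which cleaves sphingomyelin of the diet, was at least 728-fold lower. Ace, a carboxypeptidase of the angiotensin system that lies on both brush borders, was lower by a difference of -5.48 ± 0.67 (-6.27 without kidney 1), and Xpnpep2, an aminopeptidase, by -10.11 ± 0.38. The summed signal of the list was 1758 to 2341 in MHCIIlo and 20.3 to 57.4 in kidney. Genes that build the microvillus followed, with 11 of 12 lower and 0 higher. Myo1a, the motor that ties the actin core to the membrane, differed by -11.75 ± 0.20, Cdhr2, a cadherin that links neighbouring microvilli, by -9.63 ± 0.80 (-10.65 without kidney 1, -9.03 without kidney 2), and Vil1, the actin bundler villin, stood at 2.13, 0.59 and 0.53 in kidney and 9.08, 9.51 and 9.59 in MHCIIlo (-8.31 ± 0.44).

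Dietary lipid absorption had the lowest median of the 42 lists, -8.58 (-9.65 without kidney 1, and -6.44 with normexp), with 19 of 22 genes lower and 1 higher (2 without MHCIIlo 2). Abcg5, a chain of the transporter that returns plant sterols to the lumen, was at least 12529-fold lower. Npc1l1, the cholesterol importer, stood at -4.73, -4.996 and -4.94 in kidney and 6.26, 6.79 and 6.38 in MHCIIlo (-11.37 ± 0.20), and Mogat2, which rebuilds triglyceride from absorbed monoglyceride, differed by -10.50 ± 0.33. Fabp1, another fatty acid binding protein of enterocytes, was seen on 1 kidney array and differed by -14.11 ± 0.81 (-14.97 without kidney 1, -14.70 without MHCIIlo 1). The gene that went the other way was Scarb1, the receptor for high-density lipoprotein, seen on 2 MHCIIlo arrays (4.85 ± 0.20).

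Intestinal transporters were lower for 19 of 25 and higher for 3 (1 with normexp). Fabp6, the ileal bile acid binding protein, was at least 8732-fold lower, and Slc51a and Slc51b, the chains of the basolateral bile acid exporter, differed by -10.11 ± 0.26 and -8.73 ± 1.12 (-10.20 without kidney 1, -8.03 without kidney 2, -7.94 without kidney 3). Slc26a3, the chloride-bicarbonate exchanger of the gut, was seen on 1 kidney array and was at least 2140.5-fold lower. The higher genes handle calcium or iron: S100g, the vitamin D-induced calbindin first known from the intestine, stood at 7.86, 8.10 and 8.21 in kidney and 2.56, 2.31 and 2.40 in MHCIIlo (5.63 ± 0.18), and Trpv6, a luminal calcium channel, was at least 8.58-fold higher but not called with normexp. Cybrd1, an iron reductase, was the third (2.50 ± 0.91 (1.83 without MHCIIlo 1, 3.68 without MHCIIlo 3), adjusted p = 0.0408), with overlapping groups, and its call was kept when MHCIIlo 3 was left out (adjusted p = 3.53e-05) and lost when any other array was (adjusted p = 0.0733 to 0.136), while normexp turned it to -0.66.

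Promoters are shown for enterocyte genes that were far lower in kidney and for Umod, which was far higher, as RefSeq gives the 250 bases before the annotated start (GRCm38.p6, 5' to 3' on the gene's strand). Capitals mark letters searched for on both strands: TTTATNG for CDX and AGATAA for GATA factors, which are textbook regulators of these epithelia.
Fabp2, chr3:122894822-122895071 (+ strand): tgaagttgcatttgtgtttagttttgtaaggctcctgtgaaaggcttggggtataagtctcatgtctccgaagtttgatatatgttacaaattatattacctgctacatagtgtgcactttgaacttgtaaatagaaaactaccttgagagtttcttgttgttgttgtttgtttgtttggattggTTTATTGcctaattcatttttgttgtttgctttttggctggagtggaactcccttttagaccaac
Sis, chr3:72967864-72968113 (- strand): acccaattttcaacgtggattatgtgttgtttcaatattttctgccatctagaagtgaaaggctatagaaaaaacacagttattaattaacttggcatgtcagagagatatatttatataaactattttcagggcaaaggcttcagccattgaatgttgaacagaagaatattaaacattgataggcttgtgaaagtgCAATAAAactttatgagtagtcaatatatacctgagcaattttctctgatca
Lct, chr1:128328319-128328568 (- strand): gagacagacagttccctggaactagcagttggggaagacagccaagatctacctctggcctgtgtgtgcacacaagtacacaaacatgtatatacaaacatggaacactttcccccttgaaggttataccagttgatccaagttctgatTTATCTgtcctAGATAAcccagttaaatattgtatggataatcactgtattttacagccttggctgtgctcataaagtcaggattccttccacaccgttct
Umod, chr7:119479263-119479512 (- strand): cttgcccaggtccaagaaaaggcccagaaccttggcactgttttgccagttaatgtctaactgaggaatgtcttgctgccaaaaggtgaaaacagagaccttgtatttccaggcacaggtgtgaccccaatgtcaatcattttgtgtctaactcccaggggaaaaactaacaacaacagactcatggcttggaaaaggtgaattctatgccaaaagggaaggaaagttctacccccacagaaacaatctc
The CDX letters begin 65 bases before the start of Fabp2 and 52 before that of Sis, and the GATA letters 101 and 90 before that of Lct. The Umod window holds none of these letters. Letters of HNF1 factors had been planned as well but were not searched for in any window. The genes shown are examples and do not stand for all genes called. In windows of 250 bases before to 50 after the start, CDX letters occurred in 10.9% of all 32851 windows, in 8.76% of those of genes lower and 7.62% of those of genes higher in kidney, and GATA letters in 11.2, 8.66 and 6.63%. For genes tested and not called, CDX and GATA letters each occurred in 6.73% of windows. The letters CAAAGTCCA of HNF4 factors occurred in 0.475% of all windows, 0.934% of those of lower genes, 0.194% of those of higher genes and 0.479% of those of genes not called. In the same order, the shares were 1.56, 1.29, 1.12 and 1.04% for CAAGGTCA of ERR factors. They were 0.146, 0.126, 0.301 and 0.231% for AACCGGTT of GRHL factors and TFCP2L1. Of the genes called, 3148 lower and 3598 higher genes had a window. These matches describe letters and not bound sites.

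Among intestinal transcription factors, 21 of 23 were lower in kidney and 1 higher. Cdx2 and Cdx1, homeobox factors that set intestinal identity, were dark on all kidney arrays. Cdx2 stood at -8.09, -7.50 and -8.43 in kidney and 4.81, 4.49 and 4.50 in MHCIIlo and was at least 1529.8-fold lower, and Cdx1 was at least 194-fold lower. Isx, which controls vitamin A uptake, was at least 1598-fold lower (-12.24 ± 0.51 (-12.84 without kidney 2)). Of the nuclear receptors of endodermal and proximal tubule epithelium, Hnf4g was seen on 2 kidney arrays and differed by -8.29 ± 0.39. Hnf4a differed by -4.31 ± 0.68 (-5.18 without kidney 1) and was highest on kidney 1 among the kidney arrays. The higher gene was Hes1, a Notch target, which differed by 1.88 ± 0.22 and was not called with normexp.

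Kidney lineage transcription factors were higher for 13 of 24 and lower for 2 (5 with normexp and 4 with the authors' deposited values). Of the 24, 9 were well above background on no MHCIIlo array. Among the 12 well above background on all 6 arrays, 4 were higher and 2 lower, with a median of 0.58. Irx1 and Irx2, homeobox factors of the intermediate nephron, were at least 126-fold and 32.3-fold higher. Gata3, a factor of the collecting duct, stood at 2.46, 2.33 and 2.32 in kidney and -6.11, -4.72 and -5.61 in MHCIIlo and was at least 78.5-fold higher, and Esrrb, an orphan nuclear receptor, was at least 55-fold higher. Tfap2b and Pou3f3, factors of the distal nephron, were at least 30-fold and 21.4-fold higher. Pax8 and Pax2, which specify the kidney lineage, were not called (0.80 ± 0.29 and -0.30 ± 0.23), but Pax8 was at 2.35 with its probes averaged and Pax2 was called lower with normexp (-1.34). Pax2 stood at -3.76, -3.82 and -3.75 in kidney and -3.92, -3.35 and -3.15 in MHCIIlo. Sall1, a zinc finger factor of the kidney progenitor, was lower (-1.36 ± 0.28), as was Osr1, a factor of early kidney mesoderm (-1.12 ± 0.35, adjusted p = 0.0217). The groups overlapped for Osr1, and its call was lost without kidney 1 or 3 (-1.01 each) or MHCIIlo 2 or 3 (-0.92 and -0.96).

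Hox genes, which encode position along the body axis, were higher in kidney for 26 of 29 tested and lower for 0 (17 and 2 with normexp, and 1 lower without kidney 1, kidney 3 or MHCIIlo 1), with a median of 3.46 or 2.96 with dim genes at their bounds and 1.78 with normexp. Hoxd8 stood at 3.09, 3.17 and 3.36 in kidney and -6.33, -6.12 and -5.47 in MHCIIlo and was at least 140.0-fold higher. Hoxd4, Hoxc9, Hoxa10 and Hoxd10 were at least 64.2-fold, 38.6-fold, 29.1-fold and 18.5-fold higher, so that all but the B cluster had a member among the 6 largest. Of the 29 genes, 13 were well above background on at least 1 MHCIIlo array, and all 29 on a kidney array. Among the 11 well above background on all 6 arrays, 9 were higher and 0 lower.

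Secretory cell types of the intestine were seen in MHCIIlo and low or dark in kidney. Goblet cell genes were lower for 15 of 17 and higher for 1. Muc2, the gel-forming mucin, stood at -7.53, -7.05 and -8.34 in kidney and 4.90, 4.43 and 3.37 in MHCIIlo and was at least 1187-fold lower, and Tff3, the trefoil peptide, was at least 9861-fold lower. Sytl2, a protein of vesicle docking, was the member that was higher (2.92 ± 0.34). Enteroendocrine genes were lower for 15 of 16 and higher for 0, with Chga, the granule protein chromogranin A, at least 1026-fold lower and the hormone genes Gcg and Nts at least 210.1-fold and 144-fold lower. Paneth cell genes were lower for 10 of 12. The alpha-defensin Defa5 stood at -5.999, -6.90 and -7.27 in kidney and 7.82, 6.99 and 9.11 in MHCIIlo and was at least 15856-fold lower, although near-identical defensin copies may share a probe. The Paneth list's summed signal differed among the MHCIIlo arrays, at 787, 476 and 1840.0. Kit, a receptor kinase, and Nupr1, a stress-induced nuclear protein, were higher in kidney (6.21 ± 0.33 on 1 measured MHCIIlo array, and 2.37 ± 0.40).

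Tuft cell genes divided, with 7 of 10 lower and 3 higher. Trpm5, the cation channel of taste signalling, was at least 33.9-fold lower, and Dclk1, a kinase used as a tuft cell marker, at least 25.2-fold lower (-5.89 ± 0.57 (-6.48 without MHCIIlo 1)). Ptgs1, the constitutive cyclooxygenase, stood at 2.40, 2.97 and 2.92 in kidney and -2.55, -1.66 and -1.39 in MHCIIlo and was higher (4.63 ± 0.34), as were Cd24a, a surface glycoprotein (3.36 ± 0.23), and Ltc4s, a leukotriene synthase (1.87 ± 0.35). None of those 3 is limited to tuft cells.

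Crypt stem cell genes showed no common direction, with 7 of 18 higher (3 with normexp) and 8 lower. Axin2, a Wnt target (-4.64 ± 0.24), Smoc2, a matrix protein of the crypt base (-3.40 ± 0.25), and Olfm4, a secreted crypt protein (-2.59 ± 0.39), were lower in kidney, and Sox4, a factor of progenitors (3.88 ± 0.32), and Bmi1, a polycomb protein (2.33 ± 0.29), were higher. The list's median relative to all genes was -0.44 and turned to 0.22 with normexp. Cell cycle genes were lower for 12 of 27 and higher for 5. MHCIIlo 1 was the highest array of its group for 24 of the 27, with a summed signal of 40.1 against 21.5 and 22.2 on MHCIIlo 2 and 3 and 22.6 to 24.6 in kidney, and without it 10 were lower and 7 higher. Only 3 were higher without MHCIIlo 2, with normexp, with the authors' deposited values or with probes averaged. Top2a and Birc5, which act in chromosome segregation, were lower (-2.33 ± 0.46 and -2.66 ± 0.34), with Top2a at -4.91, -4.44 and -5.38 in kidney and -1.57, -3.22 and -2.97 in MHCIIlo. Mcm2, a subunit of the replicative helicase, was higher (2.29 ± 0.33), as was Tyms, which makes thymidylate (1.55 ± 0.35).

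**Figure D4:**
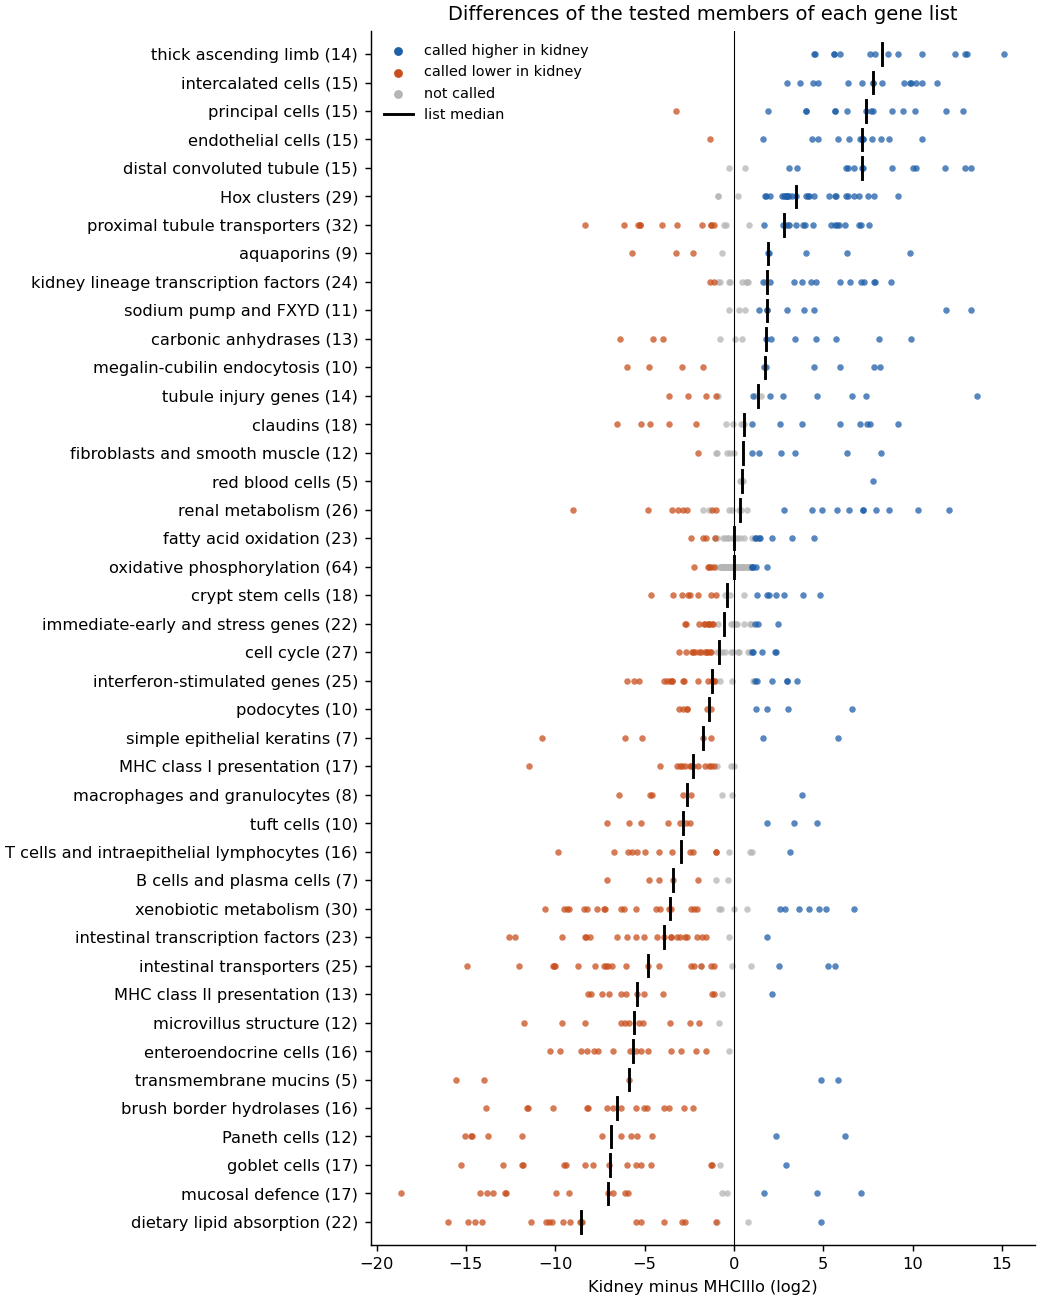
Difference between kidney and MHCIIlo (log2) of every tested gene of the 42 lists, with the number of genes in brackets, points coloured by call and a black line at each list's median, ordered by that median. The distal nephron lists and the endothelial list lie at the top, at medians above 7, and the lists of lipid absorption, mucosal defence and intestinal secretory cells at the bottom; points with no signal in one group depend on that group's floor.

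MHC class II genes were lower in kidney for 11 of 13 and higher for 1, with a median of -5.42. The MHCIIlo cells had been selected for class II protein and the kidney cells had not, so that this direction is in part fixed by the sort. Cd74, the invariant chain, stood at 0.04, -0.85 and -0.69 in kidney and 7.49, 7.51 and 7.41 in MHCIIlo (-7.97 ± 0.26). The chains H2-Aa, H2-Ab1 and H2-Eb1 differed by -7.41 ± 0.31, -6.30 ± 0.23 and -6.02 ± 0.21, and Ciita, the transactivator of class II genes, by -7.003 ± 0.20. All of these were well above background on every kidney array too. MHC class I genes, on which no gate was set, were lower for 14 of 17 and higher for 0. H2-K1, a classical class I chain, differed by -2.76 ± 0.17, the immunoproteasome subunits Psmb8, Psmb9 and Psmb10 by -2.88 ± 0.27, -3.20 ± 0.31 and -4.12 ± 0.18, and H2-T3, a class I molecule of intestinal epithelium, was at least 588-fold lower. H2-M3, which presents bacterial peptides, was not called (-0.001 ± 0.26).

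Interferon-stimulated genes were lower for 15 of 25 and higher for 6. Kidney 2 was the highest kidney array for 23 of the 25, with a summed signal of 50.6 against 32.1 on kidney 1 and 42.3 on kidney 3, and MHCIIlo arrays came to 113 to 148. Oasl1, Zbp1 and Oas1a, sensors or effectors of antiviral defence, differed by -5.998 ± 0.29, -5.32 ± 0.45 and -3.75 ± 0.29. Rsad2, Gbp3 and Ifit3, induced by the same cytokines, were higher in kidney, by 2.997 ± 0.41, 2.96 ± 0.30 and 2.12 ± 0.21. Rsad2 stood at 1.78, 2.94 and 2.66 in kidney and -0.15, -0.19 and -1.27 in MHCIIlo, with no overlap. Mucosal defence genes were lower for 12 of 17 and higher for 3 (1 with normexp). Beside Reg3b and Reg3g, Duoxa2, the maturation factor of an epithelial oxidase, was at least 4341-fold lower, Saa2, a serum amyloid made by gut epithelium, at least 3228-fold, and Lypd8, a secreted protein that holds bacteria off the epithelium, was seen on 2 kidney arrays and differed by -14.21 ± 0.35. Lypd6b was the higher member with the largest difference (at least 33.1-fold).

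Most listed genes of leukocytes moved with these immune lists despite the gate against CD45. Ptprc, which encodes CD45, did not: its difference had the opposite sign and was not called. Of 16 genes of T cells and intraepithelial lymphocytes, 12 were lower in kidney and 1 higher (3 higher when scaled to genes well above background, and 2 without kidney 1 or MHCIIlo 1 or 2). Gzma, a granzyme of cytotoxic lymphocytes, stood at -7.94, -8.12 and -8.16 in kidney and 1.30, 2.30 and 1.63 in MHCIIlo and was at least 211-fold lower, and Cd3d, a chain of the T cell receptor complex, at least 15.1-fold. Of 7 genes of B and plasma cells, 5 were lower and 0 higher, with Jchain, which joins secreted antibodies, at -2.49, -1.67 and -2.64 in kidney and 4.33, 5.09 and 5.06 in MHCIIlo (-7.09 ± 0.33). Of 8 genes of macrophages and granulocytes, 5 were lower and 1 higher, with Itgam at least 18.8-fold lower and Csf1r higher (3.84 ± 0.24). The summed signals were 15.1 to 24.8 in MHCIIlo and 4.42 to 6.25 in kidney for T cell genes, 22.0 to 36.6 and 0.768 to 1.03 for B cell genes, and 16.7 to 52.2 and 2.54 to 6.19 for myeloid genes. The median level of the myeloid genes was -1.64 to -1.37 on the MHCIIlo arrays, so that their sums there rested on a few bright members. The part of leukocyte genes in the differences of MHC, interferon and defence genes was not tested.

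Endothelial genes moved with the kidney group, with 14 of 15 higher and 1 lower. Among the 4 well above background on all 6 arrays, 3 were higher and 1 lower. Emcn, an endothelial sialomucin, stood at 3.58, 4.84 and 4.47 in kidney and -6.62, -6.29 and -5.72 in MHCIIlo and was at least 299-fold higher. Kdr, the main receptor for VEGF, was at least 130.1-fold higher, and Cdh5 and Tek, the endothelial cadherin and angiopoietin receptor, at least 34.5-fold and 33.9-fold. On 13 of 14 of these genes other than Ramp2 the highest kidney array was kidney 2. The exception, Ramp2, a receptor activity modifier, was lower on its brightest probe (-1.31 ± 0.22) and higher on another (8.77), stood at 1.73 when its probes were averaged, and was not called with quantile normalization (-0.07) or normexp (-0.90). The summed signal without Ramp2 was 59.0 to 142 in kidney and 0.707 to 1.05 in MHCIIlo. Its part in the differences of genes that endothelium shares with tubules was not tested. Podocyte genes were lower for 6 of 10 and higher for 4 (1 with normexp). Podxl, a sialomucin of podocytes and endothelium, was at least 22.1-fold higher, and Synpo, an actin-binding protein of podocyte foot processes, was lower in kidney (-3.07 ± 0.26). Of 12 genes of fibroblasts and smooth muscle, 6 were higher and 1 lower (4 lower with normexp and 3 with probes averaged). Ren1, the renin gene of the juxtaglomerular cells, stood at 2.99, 3.29 and 3.14 in kidney and -5.30, -4.96 and -4.95 in MHCIIlo and was at least 134-fold higher, and Cnn1, a calponin of smooth muscle, was at least 16.8-fold higher.

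Several gene families were split between the tissues, and the plot of 22 pairs of related genes sets both differences of each pair side by side. Cdh17, the intestinal counterpart of Cdh16, stood at -7.77, -8.14 and -8.18 in kidney and 5.32, 5.74 and 5.30 in MHCIIlo and was at least 2769.7-fold lower, as Cdh16 was at least 4217-fold higher. The glucose cotransporter Slc5a1 (SGLT1) was lower (-4.21 ± 0.36) against the higher Slc5a2. The phosphate cotransporter Slc34a2 was lower (-6.03 ± 0.17) against the higher Slc34a1. For the proton-peptide cotransporters, Slc15a2 was higher (2.75 ± 0.42) and Slc15a1, the intestinal form, lower (-7.79 ± 0.28). The amino acid transporters Slc6a18 and Slc6a19 differed by 5.67 ± 0.74 (4.91 without kidney 1), with 1 measured MHCIIlo array, and -6.84 ± 0.38. Among exchangers and factors, Slc26a4 was higher and Slc26a3 lower, and Gata3 higher and Gata4 lower (-3.50 ± 0.22). Klf15, a factor of fasting metabolism, was higher and Klf5, a factor of proliferating gut epithelium, lower (4.13 ± 0.31 and -5.48 ± 0.17).

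Other pairs did not split. Trpv5 and Trpv6, luminal calcium channels, were both higher (Trpv5 at least 16.9-fold), as were Calb1 and S100g. Guca2a and Guca2b, which encode the natriuretic peptides guanylin and uroguanylin, were both lower (-4.65 ± 0.22 and -5.95 ± 0.82 (-6.99 without kidney 1, -5.35 without kidney 3)). For Slc12a1 and Fxyd2 the partner was not called: Slc12a2, the NKCC1 of basolateral membranes, differed by 0.59 ± 0.23 and Fxyd3 by 0.60 ± 0.40, or 1.01 and called without MHCIIlo 1. A p that misses the threshold does not show equal levels.

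**Figure D5:**
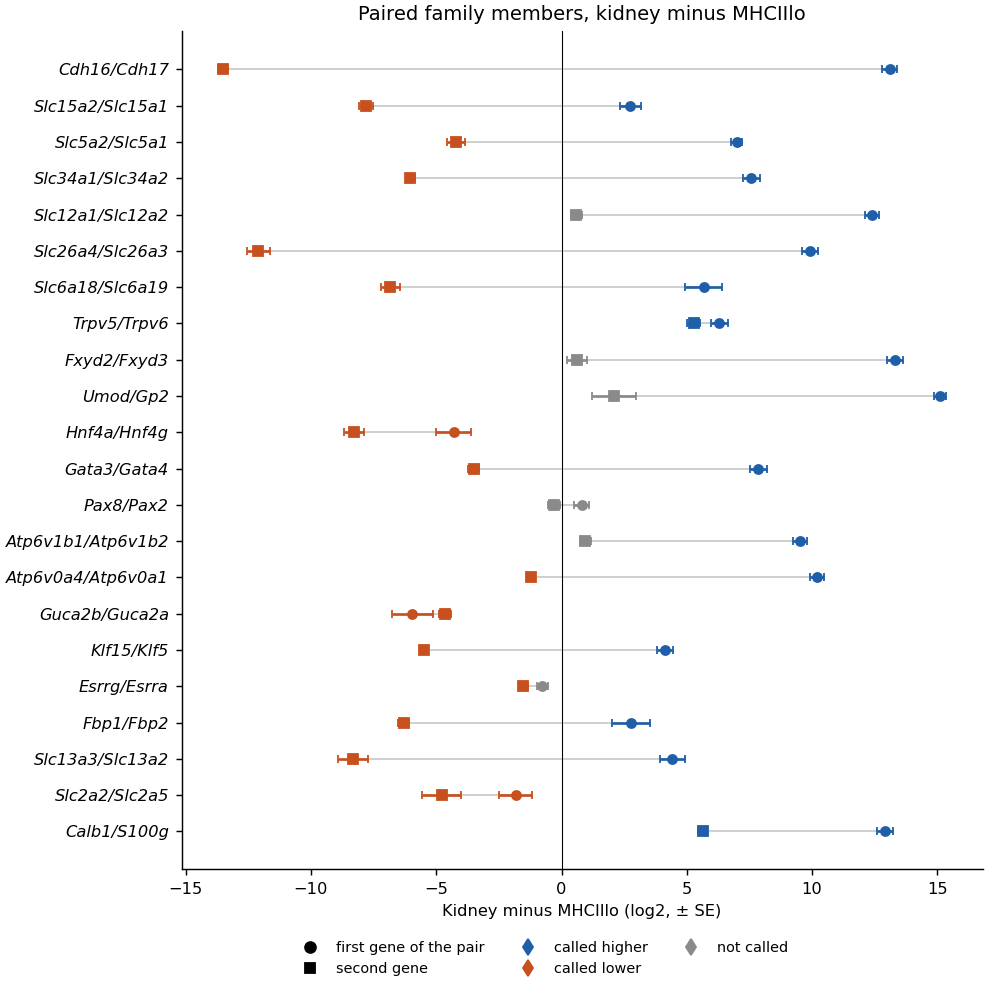
Difference between kidney and MHCIIlo (log2, bars ± SE of the fit, n = 3 arrays per group) for both members of 22 pairs of related genes, circles for the first and squares for the second, coloured by call. Cdh16 and Cdh17 lie farthest apart at the top, and Trpv5 and Trpv6 lie side by side on the kidney side.

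Junction and surface genes went in both directions. Of 18 claudins, 8 were higher (5 with normexp) and 5 lower, against 30.5% and 27.3% of all genes, and their median of 0.54 turned to -0.53 with normexp. Among the 10 well above background on all 6 arrays, 2 were higher and 5 lower, with a median of -1.26. Besides the claudins of the thick ascending limb, Cldn8, a claudin of the collecting duct, was higher (7.46 ± 0.59 (8.19 without MHCIIlo 1)), and Cldn5, the claudin of endothelium, was at least 28.1-fold higher. Lower were Cldn23 (-6.56 ± 0.27), Cldn3 (-5.19 ± 0.20), Cldn15, which forms sodium pores in the gut (-4.67 ± 0.34), and Cldn7 (-3.62 ± 0.19). Of 7 keratins, 5 were lower (3 with quantile normalization), with Krt20, the keratin of differentiated enterocytes, at -1.44, -0.91 and -1.13 in kidney and 9.51, 9.76 and 9.43 in MHCIIlo (-10.73 ± 0.20) and Krt19 at a difference of -6.09 ± 0.26. Krt7, a keratin of ducts, was higher (1.65 ± 0.23), as was Krt80 (at least 13.9-fold). Of 5 transmembrane mucins, Muc1 was at least 17.2-fold and Muc20 by a difference of 4.89 ± 0.25 higher, while Muc3, Muc13 and Muc4 were lower, Muc13 at least 6389-fold (-13.98 ± 0.55 (-14.58 without kidney 1)) and Muc4 with a difference of -5.87 ± 0.24.

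Water and acid-base genes were mixed. Of 9 aquaporins, 5 were higher and 3 lower. Aqp3, the basolateral water channel of principal cells, and Aqp1, that of proximal tubule and endothelium, were higher (4.02 ± 0.23 and 1.96 ± 0.21), and Aqp7 and Aqp11 lower (-5.71 ± 0.79 (-6.65 without kidney 1, -5.08 without kidney 2) and -3.22 ± 0.18). Of 13 carbonic anhydrases, 7 were higher and 3 lower. Car2, the cytosolic form of intercalated cells, was seen on 2 MHCIIlo arrays and differed by 9.91 ± 0.23, and Car12, a membrane form, by 5.69 ± 0.24, while Car13 and Car4 were lower (-6.35 ± 0.17 and -4.53 ± 0.35). Among 11 subunits and regulators of the sodium pump, 8 were higher (4 with normexp) and 0 lower. Fxyd6 and Atp1b3 were higher with all 6 arrays above background (3.93 ± 0.38 and 2.96 ± 0.21).

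Genes that handle foreign compounds were mostly lower in kidney, 19 of 30, with 7 higher. Cyp2c65, a cytochrome P450 of the gut, was at least 1007-fold lower, Abcb1a, the efflux pump P-glycoprotein, at least 97.2-fold, and Sult1b1, a sulfotransferase, stood at -2.72, -4.27 and -4.42 in kidney and 5.55, 5.66 and 5.45 in MHCIIlo (-9.36 ± 0.44). Higher were Cyp2j5, a renal P450 (at least 34.8-fold, 6.74 ± 0.81 (7.66 without MHCIIlo 3)), Abcc4, an organic anion efflux pump (5.15 ± 0.18), and Gsta3, a glutathione transferase (4.20 ± 0.35).

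The counts of housekeeping, stress and injury lists moved with the scaling. Over all genes tested, 30.5% were called higher and 27.3% lower. Of 64 genes of oxidative phosphorylation, 5 were higher and 5 lower. These counts were 33 and 1 with quantile normalization, 13 and 2 with normexp and 1 and 8 with the authors' deposited values, so that no direction holds. Without MHCIIlo 2 or 3 the higher genes were 2 and 3. The median was 0.01, which relative to all genes ran from -0.07 to 1.04 over the scalings. Cyc1, a cytochrome of complex III, stood at 6.36, 6.11 and 6.08 in kidney and 6.27, 6.02 and 6.23 in MHCIIlo (0.01 ± 0.17), and at a difference of 1.03 with quantile normalization. Cox7a1, a muscle-type subunit of cytochrome oxidase, was lower (-2.21 ± 0.28), and Ndufa4, another subunit of that oxidase, higher (1.84 ± 0.35). Of 23 genes of fatty acid oxidation, 7 were higher, close to the share of all genes, and 4 lower (1 with quantile normalization). Cpt1a, which admits fatty acids to mitochondria, was higher (2.14 ± 0.27), as was Pdk4, a kinase that shuts pyruvate out (4.50 ± 0.64 (3.70 without MHCIIlo 2)), and Hadh lower (-2.43 ± 0.20). Immediate-early and stress genes were higher for 3 of 22 (5 without MHCIIlo 3) and lower for 10, but higher for 6 and lower for 4 with quantile normalization. Fosl2 was lower (-2.65 ± 0.32) and Ier3 higher (2.48 ± 0.36), and Egr1 was not called (0.02 ± 0.27). Of 14 genes known from tubule injury, 7 were higher (3 with normexp) and 4 lower. Among the 7 well above background on all 6 arrays, 1 was higher and 4 lower, with a median of -1.02. The higher one was Clu, a secreted chaperone (7.38 ± 0.40), and the lower ones included Anxa2, a membrane-binding annexin (-3.62 ± 0.23). The medians of the stress and injury lists relative to all genes, -0.61 and 1.30, turned to 0.45 and -0.24 with normexp (the injury median was 2.12 without MHCIIlo 3), and that of fatty acid oxidation, -0.06, turned to 0.81.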

How the data were processed

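The deposited processed signal is a linear intensity that the scanner software (Agilent Feature Extraction 10.5.1.1) background-subtracted and detrended, per the file headers, with a surrogate value where a spot was not significant. Labelling was done by Miltenyi, per the labels' protocols. The authors' deposited values equalled this intensity divided by each array's median over non-control spots (largest relative deviation 2.37e-05). The sources used here do not say how it was made.

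From these, control spots and spots flagged as outliers were left out and spots of a probe averaged (41174 probes, 0 saturated spots). Flagged spots were kept where every spot of a probe on an array was flagged, for 59 probe values. Of the probes, 24482 were named by accession through RefSeq names of GRCm38.p6 and 16692 kept the file's name. A gene was represented by its brightest probe on average over the 6 arrays. Values are log2 signals less the 75th percentile of their array. Genes were tested if every array of 1 or both groups was well above background, with lmFit and eBayes of limma 3.58.1 in R 4.3.3 with the data.table package (version 1.17.8), with Benjamini-Hochberg adjustment over 19759 genes. Figures were drawn with matplotlib 3.10.9 and data joined with pandas 2.3.3 in Python 3.11.15. Replicates were called independent by the labels, each a pool of mice.

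Members, the 42 lists and the 22 pairs were chosen with earlier results of these data known. Named genes were the gate markers, the 10 largest differences per direction on all 6 arrays, the 8 largest bounds per direction, up to 6 called members per direction of a list, both members of a pair and 8 uncalled list members with the smallest difference. Clone names were passed over. Sgms2, Trpm6, Scnn1a and Eps8 were named after their values were seen. Not every gene that the rule names is described, and some results are not reported here. On simulated data of 19759 genes, the fit called 53.7% of changes of log2 size 1.5, 76.9% of size 2, 92.6% of size 3 and 0.0256% of unchanged genes. The simulation changed only a small part of the genes, with normal noise and with spreads shuffled among genes. In the data 57.9% of genes were called, so that the adjusted threshold was stricter in the simulation. Its shares therefore do not carry over to this comparison.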

Additional observations from a re-analysis of the deposited data

How the results depend on the processing

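Of 231 genes named, 219 kept their direction and their side of the thresholds in every alternative in which they were tested. Ramp2 turned to 1.73 with the mean of a gene's probes and Cybrd1 to -0.66 with normexp. Against 11434 called genes (6032 higher, 5402 lower), no filter on dim probes gave 18102, of which 12064 were lower. A filter requiring all 6 arrays gave 7140, of which 2559 were higher, because dim genes were no longer tested. A difference of at least 2 left 6475 (3596 higher, 2879 lower), and normexp gave 2966 higher. The share of called genes that were higher was 52.8%, against 27.7% with normexp, 33.4% without the filter, 35.8% with the strict filter and 44.3% with the authors' values. Other settings gave between 10716 (normexp) and 11614 (the authors' values) called genes, and testing each probe gave 16837. Leaving out each array in turn gave 11187 to 11725 called, 5899 to 6108 higher and 5244 to 5617 lower. In such fits the shrunken group was assumed to vary like the other.

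Replicate numbers do not pair the samples: deviations of same-numbered arrays correlated at 0.04, 0.002 and -0.03. With the replicate number as a block, 11433 genes were called.

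The limits are those of signal over background. Of the genes higher in kidney, 2483 were not well above background on any MHCIIlo array, and of the lower ones 318 on no kidney array, so that their folds are bounds set by the floor of the dim arrays. Probes of 285 of 6537 genes with several tested probes were called in both directions. Group, slide, release and gate cannot be told apart, and 3 pools a group show only the spread between pools.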

Other observations

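Some of the largest differences on all 6 arrays fell outside the lists of tissue markers. Pgam2, the muscle form of phosphoglycerate mutase, stood at 4.65, 4.91 and 5.03 in kidney and -2.80, -3.37 and -3.29 in MHCIIlo (8.02 ± 0.22), and lay beside Slc2a4 and Fabp3, which are also best known from muscle, among the 10 largest on the kidney side. Klk1b4 and Klk1b26, members of the tandem kallikrein cluster, differed by 7.72 ± 0.26 and 7.51 ± 0.24, although near-identical copies of this cluster may share probes. On the intestinal side the 10 largest held Eps8l3 (-11.71 ± 0.31), a relative of the microvillus protein Eps8, which itself was not called (-0.85 ± 0.21, and called at -1.15 with the authors' deposited values and just past the threshold without kidney 1), and Plb1, a brush border phospholipase (-11.63 ± 0.20).

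A few genes best known from a nephron segment were measured in MHCIIlo as well. Aqp2 was well above background on all 3 MHCIIlo arrays, at -1.30, -0.83 and -0.68, and Trpm6 reached levels that overlapped those in kidney. Scnn1a, the alpha subunit of ENaC, was also measured on all 6 arrays (5.66 ± 0.18), whereas Scnn1b and Scnn1g were dark in MHCIIlo.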
